A study of Homo sapiens with 42 samples.

Results

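Nuclear RNA was compared with cytoplasmic RNA in control cells of the breast cancer line MDA-MB-231. The cells are labelled gCTRL, the control for cells with the splicing factor HNRNPC knocked down (gHNRNPC), and both are labelled poorly metastatic. The members were chosen by label: 3 cytoplasmic and 3 nuclear gCTRL libraries, 6 of the 42 libraries in the series. They received no compound. Libraries of the same fractions served for comparison, 6 from gHNRNPC cells and 6 from Par cells, which are MDA-MB-231 cells labelled poorly metastatic with no guide named. RNA 3′ ends were sequenced with the QuantSeq REV kit, which reads the last bases before the poly(A) tail. Each count was therefore taken to stand for a transcript end and not for a whole transcript. Whether some reads began at runs of A inside transcripts was not tested. The labels do not describe how the fractions were separated, and they do not say whether replicates came from separate cultures, so the spread behind each p-value is that of these libraries and may be technical.

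A messenger RNA is made in the nucleus and translated in the cytoplasm, either on free ribosomes or, when it encodes a secreted or membrane protein, on ribosomes bound to the endoplasmic reticulum (ER). The ER is continuous with the outer nuclear membrane, and mitochondria, which make their own RNA, often lie close to the nucleus. Several long noncoding RNAs, such as MALAT1, stay in the nucleus after they are made.

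Depth was 1919446, 2042420 and 2190477 counts in the cytoplasmic libraries and 1641754, 1555166 and 1414457 in the nuclear ones. HNRNPC, which the knockdown targets, stood at 526, 444 and 478 CPM (counts scaled to a library total of 1000000) in gCTRL cytoplasm and 422, 528 and 677 in gCTRL nuclei. In gHNRNPC it was 87.3, 120 and 103 in cytoplasm and 82.9, 111 and 81.3 in nuclei, below every gCTRL library. Among markers of the line, VIM had 426 to 1117 counts in each gCTRL library and CAV1 had 777 to 1019. Of the markers listed as low or absent, ESR1 and PGR were at 0 in all 6, CDH1 had 0 to 2 counts and EPCAM 6 to 21. Of the 10 immune, endothelial and fibroblast markers only CD74 and CD68 had enough counts to be tested, with 20 to 374 and 9 to 55 per library. PTPRC, VWF and COL1A1 had at most 1, 2 and 10 counts. PECAM1, CDH5, COL1A2, CD3E and DCN were at 0 in all 6 libraries. Counts near 0 need not mean that a gene is silent, because GAPDH, a highly expressed housekeeping gene, had 1 to 6 counts and TIMP1 none in any gCTRL library; the cause was not tested.

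Most genes differed between the fractions. Of 9351 genes tested, 3172 were higher in nuclei (33.9% of those tested) and 2580 were lower (27.6%), by edgeR's quasi-likelihood test with Benjamini-Hochberg adjusted p under 0.05. With at least a 2-fold difference also required, 2718 genes were higher (29.1%) and 1783 lower (19.1%). The median over all genes tested was 0.06 on the log2 scale, nuclei minus cytoplasm. Levels were scaled by TMM, which sets the bulk of genes to equal levels, so a difference is relative to the other RNA in the same fraction and says nothing of molecules per cell. The 22 gene lists described here hold 586 places, of which 577 had an entry in the table and 444 had enough counts to be tested.

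RNA made inside mitochondria marked the fraction labelled nuclei. Mitochondrially encoded genes gave 0.0520, 0.152 and 0.146% of cytoplasmic library counts and 7.33, 8.41 and 8.80% of nuclear counts. The groups did not overlap, and the exact two-sided permutation p was 0.1, the smallest that 3 against 3 libraries can give. All 12 of the mitochondrially encoded genes tested were higher in nuclei, by 3.76 to 6.48 on the log2 scale, with a median of 5.70. MT-CO3, a subunit of cytochrome c oxidase, was at 146, 495 and 454 CPM (from here on TMM-normalised) in cytoplasm and at 29110, 32364 and 36445 CPM in nuclei. Its log2 difference was 6.48 ± 0.38 (SE, n = 3 and 3, edgeR adjusted p = 9.66e-13). The cytoplasmic library of replicate 1 held less of it than the other cytoplasmic libraries, and still no cytoplasmic library came near a nuclear one.

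MT-CYB, of the cytochrome bc1 complex, rose from 27.7, 47.03 and 51.7 CPM in cytoplasm to 3196, 4268 and 3860 CPM in nuclei. MT-RNR1, the small mitochondrial ribosomal RNA, stood 6.08 ± 0.30 higher on the log2 scale and MT-RNR2, the large one, 5.17 ± 0.35 higher. The complex I subunits MT-ND1, MT-ND2 and MT-ND4 differed by 5.78, 5.30 and 5.53, and the oxidase subunits MT-CO1 and MT-CO2 by 6.02 and 5.54. MT-ND5 had the smallest difference, 3.76 ± 0.44. MT-ATP6 (6.12) and MT-ND6 (5.62) are uncertain, since most of their counts were split estimates shared with other entries. MTCO3P12, a nuclear pseudogene copy of MT-CO3, was also among the 10 largest differences at 6.14 ± 0.58, and its reads may be hard to tell from those of the parent gene.

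**Figure D1:**
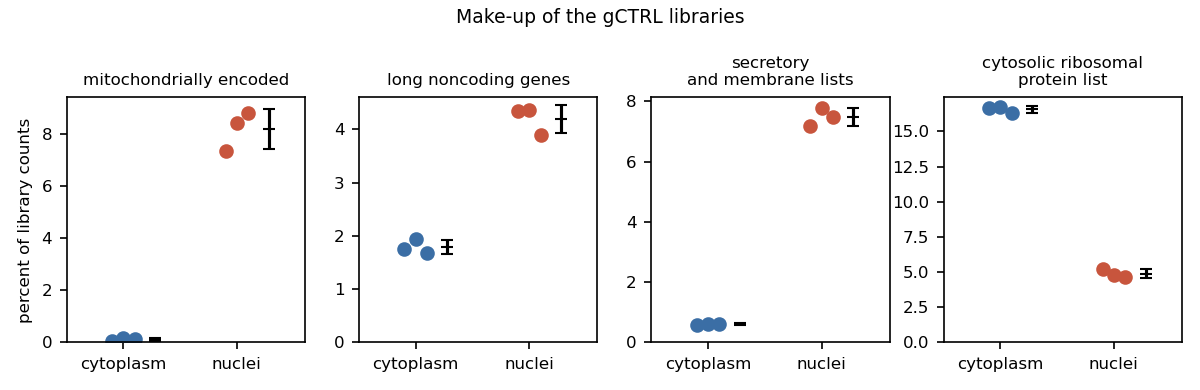
Percent of library counts (vertical axes, each from 0) in 3 cytoplasmic and 3 nuclear gCTRL libraries, 1 dot per library with mean ± SD beside it, for 4 kinds of gene. Mitochondrially encoded RNA was 0.117 ± 0.0560% in cytoplasm and 8.18 ± 0.761% in nuclei, and in each panel the groups do not overlap.

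Most tested genes of the lists for secreted, surface, ER and lysosomal proteins were higher in nuclei. The 6 lists together held 0.611 ± 0.0219% of cytoplasmic counts and 7.47 ± 0.299% of nuclear counts (SD, n = 3 each, exact permutation p = 0.1). Because the first codons of such messages often encode a hydrophobic stretch that leads the ribosome to the ER, the first 75 coding bases are shown for the 3 genes of these lists that were furthest toward nuclei (PSAP, NOTCH2, COL4A2) and the 3 of the cytosolic lists furthest toward cytoplasm (RPL41, RPL27A, RPS12). Sequences are from GENCODE 29 transcripts (GRCh38), 5′ to 3′, and capitals mark codons after the start codon with T in the middle, which encode hydrophobic residues (F, L, I, M and V).
PSAP: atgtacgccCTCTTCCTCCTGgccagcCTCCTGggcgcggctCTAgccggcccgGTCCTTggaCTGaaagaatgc
NOTCH2: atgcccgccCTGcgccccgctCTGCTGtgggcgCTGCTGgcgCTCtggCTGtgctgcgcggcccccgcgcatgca
COL4A2: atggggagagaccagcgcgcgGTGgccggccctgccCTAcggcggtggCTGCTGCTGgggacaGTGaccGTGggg
RPL41: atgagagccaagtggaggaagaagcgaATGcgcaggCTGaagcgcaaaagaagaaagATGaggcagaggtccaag
RPL27A: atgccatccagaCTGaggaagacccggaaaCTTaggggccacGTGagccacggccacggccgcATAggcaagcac
RPS12: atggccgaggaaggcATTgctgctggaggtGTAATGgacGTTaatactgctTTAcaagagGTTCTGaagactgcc

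PSAP has 10 such codons among the 24 after the start, NOTCH2 and COL4A2 7 each, RPL41 3, RPL27A 4 and RPS12 7. The count alone therefore does not separate RPS12 from NOTCH2. Over coding genes with a sequence the log2 difference was described by the percent of such codons among codons 2 to 30. Its median was -0.16 with up to 20% (2611 genes, 671 higher in nuclei and 827 lower). With over 50% it was 2.08 (122 genes, 91 higher and 9 lower). The most hydrophobic run of 11 residues near the start had a mean Kyte-Doolittle hydropathy of 2.36 for PSAP, 2.46 for NOTCH2 and 2.20 for COL4A2. It was 1.10 for RPS12, -0.71 for RPL27A and -2.10 for RPL41. PSAP, NOTCH2 and COL4A2 were picked from secretory and membrane lists and the others from cytosolic lists, so the choice of lists already favours such a split. All were also picked for their extreme differences, so these values are a description and not a test.

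Lysosomal genes included the largest single difference outside the mitochondrial genome. PSAP (chromosome 10, 71816298 to 71851375, GRCh38), the precursor of the saposins that help to break down sphingolipids, was at 100.6, 101.1 and 111.4 CPM in cytoplasm and 8580, 7312 and 8732 CPM in nuclei. The log2 difference was 6.30 ± 0.29 (edgeR adjusted p = 2.87e-14), and the groups were far apart. SMPD1, the lysosomal sphingomyelinase, which is not on the lysosomal list, was at 4.35, 2.70 and 4.74 CPM in cytoplasm and 288, 195 and 209 CPM in nuclei. GAA, the lysosomal hydrolase of glycogen, was higher by 4.74. In all 16 of the 17 genes of the lysosomal list tested were higher in nuclei and none lower, with a median of 3.44. The exception, CTSZ, differed by 0.58 ± 0.27 (edgeR adjusted p = 0.0632) and was named after its value was seen.

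All 26 secreted and matrix genes tested were higher in nuclei, with a median of 3.67 and a smallest difference of 1.76. FN1, which encodes fibronectin, was at 94.6, 111 and 105 CPM in cytoplasm and 2372, 2992 and 1863 CPM in nuclei, a log2 difference of 4.54 ± 0.23 (edgeR adjusted p = 1.06e-13). COL4A2, a basement membrane collagen chain, was at 1.09, 0 and 0.948 CPM in cytoplasm and 43.8, 47.9 and 31.0 CPM in nuclei. COL6A1 and CLU, encoding a collagen VI chain and the secreted chaperone clusterin, were higher by 4.59 and 4.33.

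Messages of surface proteins lay on the same side. All 29 integrins and other receptors tested were higher in nuclei, with a median of 3.20. NOTCH2 (chromosome 1, 119911553 to 120069626), a receptor for Delta and Jagged ligands, had 0.544, 0 and 0.948 CPM in cytoplasm and 23.5, 36.2 and 48.85 CPM in nuclei. ITGAV, the integrin αV chain, was higher by 5.12 ± 0.34, LRP1, an endocytic receptor, by 4.58 ± 0.40, and BSG, also called basigin, by 4.51 ± 0.21. Of 19 plasma membrane transporters tested 18 were higher and none lower, with a median of 2.69. SLC16A3 (lactate export), SLC2A1 (glucose uptake) and SLC3A2 (an amino acid transporter chain) were higher by 4.05, 3.94 and 3.93.

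The ER's own machinery followed. Of 15 ER chaperones and folding enzymes tested 14 were higher in nuclei and none lower, with a median of 2.88. HSP90B1, the ER form of HSP90, was at 10.9, 8.65 and 9.955 CPM in cytoplasm and 354.5, 464 and 685 CPM in nuclei, a log2 difference of 5.66 ± 0.35 (edgeR adjusted p = 2.23e-12). PDIA6, a disulfide isomerase, CALR, a calcium-binding chaperone, and DNAJC3, a co-chaperone, were higher by 4.50, 3.74 and 3.43. Of 16 translocon and oligosaccharyltransferase subunits tested 14 were higher and 1 lower, with a median of 2.44. RPN1, DDOST, RPN2 and STT3A, all subunits of the enzyme that attaches sugars to new proteins, were higher by 4.28, 4.22, 4.05 and 4.01. The one that was lower is OST4, a very small subunit of the same enzyme, at -1.82 ± 0.28, named after its value was seen.

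The nuclear envelope list was mixed in level. Of 15 genes tested 10 were higher in nuclei and 1 lower, with a median of 1.32. The 4 largest were all proteins that span a membrane: SUN2 and SUN1, which link the nucleus to the cytoskeleton, NUP210, the pore membrane glycoprotein, and LBR, the lamin B receptor. SUN2 went from 14.1, 8.65 and 15.6 CPM in cytoplasm to 627, 606 and 886.5 CPM in nuclei (log2 5.77 ± 0.32), and the other 3 were higher by 3.86, 4.80 and 4.19.

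**Figure D2:**
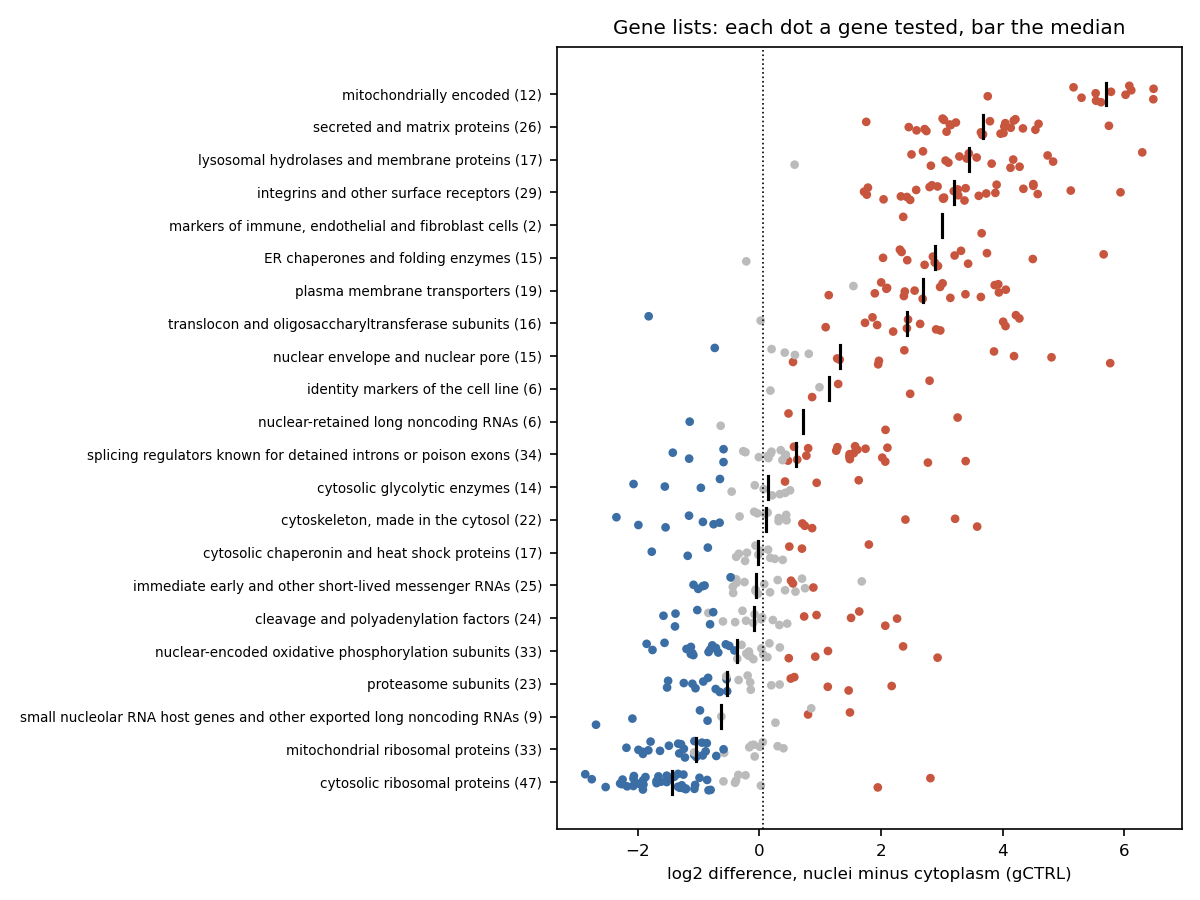
Log2 difference, nuclei minus cytoplasm, for every tested gene of 22 lists (number tested in parentheses), with the list median as a black bar and the median of all 9351 genes as a dotted line. Red dots were higher in nuclei, blue dots lower and grey dots not called at adjusted p under 0.05; medians ran from -1.43 for cytosolic ribosomal proteins to 5.70 for mitochondrially encoded genes.

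Messages of cytosolic ribosomal proteins lay on the cytoplasmic side. Of 47 tested 39 were lower in nuclei and 2 higher, with a median of -1.43, and the list held 16.6 ± 0.244% of cytoplasmic counts and 4.88 ± 0.318% of nuclear counts (SD, n = 3 each, exact permutation p = 0.1). RPL27A was at 39010, 52513 and 39130 CPM in cytoplasm and 7058, 7300.1 and 5003 CPM in nuclei, a log2 difference of -2.75 ± 0.25 (edgeR adjusted p = 1.07e-09). RPS12 differed by -2.53 ± 0.23 and RPL41, at a far lower count level, by -2.86 ± 0.54. The 2 that were higher, RPS9 (2.81) and RPL34 (1.95, named after its value was seen), rest almost wholly on split counts shared with other entries.

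Messages of nuclear genes for mitochondrial proteins had list medians below 0. Of 33 mitochondrial ribosomal protein genes, which are nuclear genes, 23 were lower in nuclei and none higher, with a median of -1.04. MRPS15 was at 60.9, 67.0 and 64.9 CPM in cytoplasm and 22.8, 13.6 and 14.5 CPM in nuclei. MRPS28, MRPL47 and MRPL51 differed by -2.18, -1.99 and -1.91. Of 33 nuclear-encoded subunits of oxidative phosphorylation 16 were lower and 5 higher, with a median of -0.36. The 2 largest that were higher, NDUFS8 (2.93) and UQCRH (2.36), again rest mostly on split counts. SDHD at -1.85 (edgeR adjusted p = 0.0306) and UQCRB at -1.76 were lower, and SDHD lost the call without cytoplasmic replicate 1 or 3 or nuclear replicate 1 or 3 (edgeR adjusted p from 0.0695 to 0.135).

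Other cytosolic lists did not move one way. Of 23 proteasome subunits 11 were lower and 5 higher (median -0.53), with PSMD7 at -1.52, PSMD4 at -1.50, PSMD3 at 2.18 and PSMD8, on split counts, at 1.47. Of 14 glycolytic enzymes 4 were lower and 3 higher (median 0.14). LDHA, lactate dehydrogenase A, went from 255, 313.5 and 221 CPM in cytoplasm to 122, 85.4 and 60.7 CPM in nuclei, while HK2, hexokinase 2, was higher by 1.63 ± 0.28. Of 17 chaperonin and heat shock genes 3 were lower and 3 higher (median -0.02), among them CCT6A at -1.77. HSPA1A, an inducible HSP70, went from 15.2, 11.9 and 17.5 CPM in cytoplasm to 47.6, 45.3 and 64.0 CPM in nuclei. Of 22 cytoskeletal genes 7 were lower and 6 higher (median 0.11). VCL (vinculin) and ACTN4 (an actinin) were higher by 3.58 and 2.40, and TPM4, a short tropomyosin, was lower, from 1256, 1623 and 1153 CPM to 292, 280 and 218.5 CPM. The ACTN4 result rested on its position entries: with transcript entries alone it was -0.23 (edgeR adjusted p = 0.708).

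**Figure D3:**
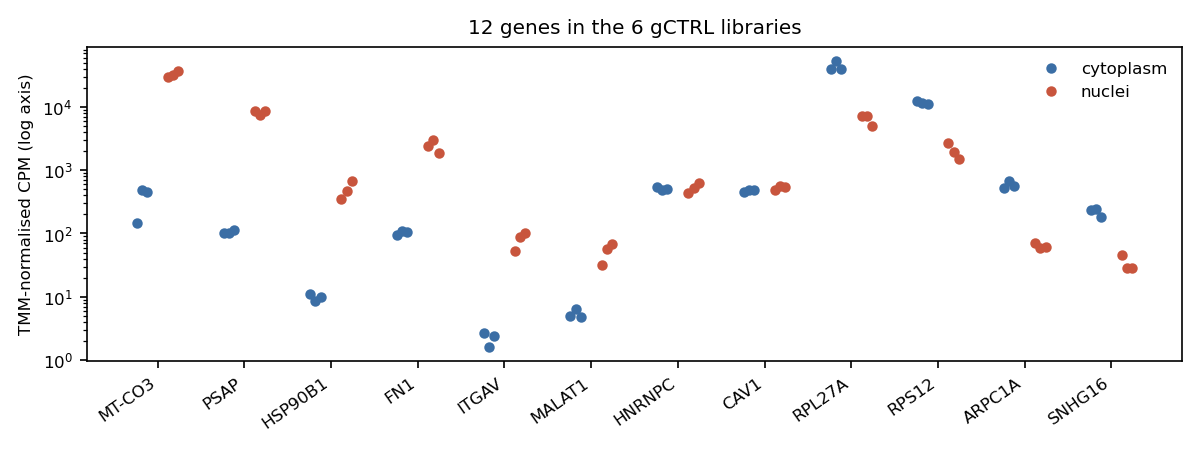
TMM-normalised CPM (log axis) of 12 genes in the 3 cytoplasmic (blue) and 3 nuclear (red) gCTRL libraries, 1 dot per library. MT-CO3, PSAP, HSP90B1, FN1, ITGAV and MALAT1 were higher in nuclei and RPL27A, RPS12, ARPC1A and SNHG16 lower without overlap; HNRNPC and CAV1 were not called.

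Named by the rule of at least 20 CPM in the higher fraction and no overlap between groups, the gene furthest toward cytoplasm was CDC42SE2, an effector of CDC42. It was at 132, 144 and 114 CPM in cytoplasm and 12.7, 15.5 and 12.5 CPM in nuclei, a log2 difference of -3.25 ± 0.29 (edgeR adjusted p = 9.38e-10). ARPC1A, a subunit of the Arp2/3 complex that branches actin, was at 513, 663 and 568 CPM in cytoplasm and 71.0, 58.9 and 61.4 CPM in nuclei. PPIL1, a spliceosomal prolyl isomerase, differed by -3.15, and STAC, KIAA1522, ARL2BP, ZNF358, PPDPF, DNAJC24 and STYX by -3.21 to -2.87. In none of these 10 genes did a nuclear library reach a cytoplasmic one, which the rule for naming them required.

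Long noncoding genes as a class were higher in nuclei: 392 of 607 tested were higher and 75 lower, with a median of 1.82, and their share of counts was 1.79 ± 0.135% in cytoplasm and 4.20 ± 0.263% in nuclei (SD, n = 3 each, exact permutation p = 0.1). Genes annotated as sense intronic had a median of 2.37 (53 of 61 higher, 2 lower), lincRNAs 1.71 (126 of 206 higher, 25 lower) and antisense genes 1.62 (101 of 177 higher, 29 lower). MALAT1 was at 4.89, 6.49 and 4.74 CPM in cytoplasm and 31.7, 56.9 and 67.3 CPM in nuclei, a log2 difference of 3.26 ± 0.36 (edgeR adjusted p = 4.24e-08). Beside it stand 4.54 for FN1 and 6.30 for PSAP, which are translated messages. These differences were not tested against each other. Only MALAT1 ends before a poly(A) tail could be counted, and its cytoplasmic level was low, so 3.26 need not hold for all MALAT1 RNA. Of 6 tested genes on the list drawn up as nuclear-retained RNAs 3 were higher and 1 lower. MEG8 (2.07) rests on split counts, TUG1 differed by 0.48 ± 0.21 with an edgeR adjusted p of 0.0461 that 14 alternatives lost, and OIP5-AS1 was lower by -1.14 ± 0.21. AC016831.4 was at 0, 0.541 and 0.948 CPM in cytoplasm and 31.1, 46.6 and 39.6 CPM in nuclei.

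Noncoding RNAs known to be exported were found on both sides. Of 9 tested small nucleolar RNA hosts and similar genes 4 were lower in nuclei and 2 higher. SNHG16 went from 233, 242 and 182 CPM in cytoplasm to 45.02, 28.5 and 28.4 CPM in nuclei, EPB41L4A-AS1 differed by -2.09 and NORAD, which binds PUMILIO proteins, by -0.98. SNHG3 was higher by 1.49 ± 0.33. Processed pseudogenes had 49 of 83 lower and 13 higher, with a median of -0.99, and their counts may come in part from the parent messages.

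Splicing regulators, many of which keep some introns in nuclear transcripts, were higher in 19 and lower in 4 of 34 tested, with a median of 0.60. The RNA helicase DDX17 was at 1.63, 3.78 and 3.79 CPM in cytoplasm and 26.6, 45.3 and 27.7 CPM in nuclei. RBM5 and the kinases CLK2 and CLK1 were higher by 2.77, 2.11 and 2.07. Short-lived messages did not stand on the nuclear side: of 25 immediate early and similar genes 3 were higher and 5 lower (median -0.06), with DUSP5 at -1.08, IER3 at -0.90 and KLF4 at -0.93 (edgeR adjusted p = 0.0421, lost under 8 alternatives). CDKN1A, which encodes the cell cycle inhibitor p21, went from 84.8, 86.5 and 94.8 CPM in cytoplasm to 46.3, 42.7 and 43.6 CPM in nuclei. Of 24 cleavage and polyadenylation factors 6 were higher and 6 lower, with RBBP6, CPSF1 and CSTF3 higher by 2.26, 2.07 and 1.64 and CPSF4 at -1.58.

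The genes were also grouped by the protein they encode, without use of the lists. Of 8521 coding genes tested, 8454 had a coding sequence, from which 2 features were read: a signal-like hydrophobic stretch near the start of the protein and a transmembrane-like stretch further in. Of 686 genes with both, 557 were higher in nuclei and 29 lower, with a median of 2.24. Of 564 with a signal-like stretch alone 372 were higher and 57 lower, with a median of 1.90. Of 1574 with a transmembrane-like stretch alone 758 were higher and 250 lower, with a median of 0.73. Of 5630 with neither 995 were higher and 2059 lower, with a median of -0.33, beside 0.01 for all 8454. Genes with either feature gave 14.4 ± 0.519% of cytoplasmic and 31.7 ± 0.407% of nuclear counts.

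Membrane proteins bound for mitochondria had medians near or below 0, without a test against other membrane proteins. These families were picked by gene name after results had been seen. Of 132 solute carriers outside the SLC25 family 107 were higher in nuclei and 7 lower, with a median of 2.12. Of 29 SLC25 genes, whose proteins are carriers of the mitochondrial inner membrane made on free ribosomes, 5 were higher and 12 lower, with a median of -0.07. Of 17 TOMM and TIMM genes, which encode the mitochondrial import machinery, 1 was higher and 7 lower, with a median of -0.57. All 10 collagen chains tested were higher, by 1.63 to 5.75. TMEM genes, a family of numbered transmembrane proteins of many compartments, were mixed: 78 of 125 were higher, 15 lower and 32 not called, with a median of 1.30 and a range from -3.88 to 5.58.

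Among genes with neither feature the median was lowest for the shortest proteins and highest for the longest. For proteins of up to 200 residues 606 of 862 genes were lower in nuclei and 49 higher, with a median of -1.20. The median was -0.53 for 201 to 500 residues (2368 genes) and 0.00 for 501 to 1000 residues (1742 genes). For proteins over 1000 residues 269 of 658 genes were higher and 60 lower, with a median of 0.49. The annotated length of the 3′ untranslated region showed no such run, with medians of -0.39, -0.30, -0.34 and -0.26 from the shortest to the longest of 4 classes. Length and other properties of these genes, such as the number of exons or the level, move together, and their parts were not tested.

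**Figure D4:**
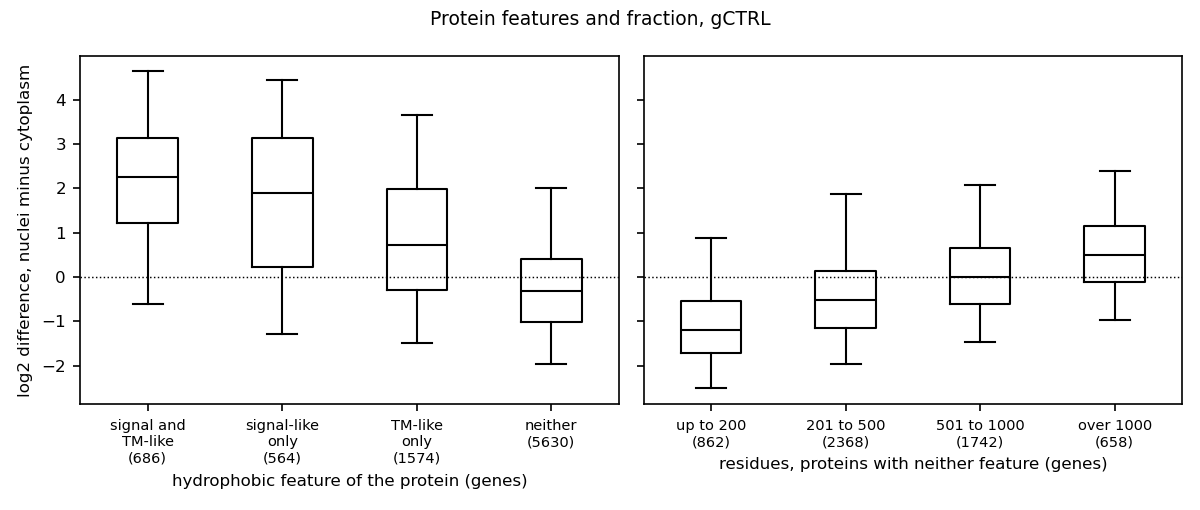
Log2 difference, nuclei minus cytoplasm, of coding genes by hydrophobic feature (left; TM, transmembrane) and, for proteins with neither feature, by protein length in residues (right). Boxes give the quartiles and median, whiskers the 5th and 95th percentiles, and the number of genes is in parentheses; medians fall from 2.24 to -0.33 on the left and climb from -1.20 to 0.49 on the right.

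Long noncoding genes as a class, the sense intronic genes and MALAT1 were higher in the fraction labelled nuclei. The short list drawn up as nuclear-retained RNAs was mixed, with OIP5-AS1 lower and 2 of 6 not called. Whether each member, OIP5-AS1 among them, is retained in nuclei was not tested. Mitochondrially encoded RNA and the secretory and membrane lists also took a larger share of its counts than of cytoplasmic counts. Mitochondrially encoded RNA can be told by its genes. For nuclear genes, RNA inside nuclei and RNA on ER or mitochondria that may have come with them cannot be told apart. MALAT1 and FN1, for example, were both higher in the fraction labelled nuclei.

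The same contrast was made in gHNRNPC and Par cells. In gHNRNPC cells 2922 genes were higher in nuclei (31.2%) and 2163 lower (23.1%). Of these, 2605 were higher in gCTRL too, which is 82.1% of the gCTRL genes and 89.2% of the gHNRNPC genes, and 1814 were lower in both, 70.3% and 83.9%. In Par cells, which share no library with gCTRL, 2209 of 8541 genes tested were higher (25.9%) and 1871 lower (21.9%). Over genes tested in both, 1946 were higher in both (70.2% of the gCTRL genes, 90.6% of the Par genes) and 1618 lower in both (65.5% and 87.3%). The mitochondrially encoded genes had a median of 3.36 in Par against 5.70 in gCTRL, which were fitted in separate tables and not tested against each other. MT-CO3 was at 887, 1171 and 1375 CPM in Par cytoplasm, above the 3 gCTRL cytoplasmic libraries, on a scale set in another table. The secreted and matrix list had a Par median of 3.02 and the ribosomal protein list -0.93. Of 22 lists 6 had a median of the other sign in Par. Nuclear-retained RNAs went from 0.72 in gCTRL (6 genes) to -0.18 in Par (5 genes, of which 2 were called higher and 0 lower). Oxidative phosphorylation subunits went from -0.36 to 0.07 (7 lower and 4 higher in Par). Immediate early and similar genes went from -0.06 (25 genes) to 0.23 (22 genes, 7 higher and 4 lower in Par). Glycolytic enzymes went from 0.14 to -0.04 (4 higher and 2 lower in Par). Chaperonin and heat shock genes went from -0.02 to 0.11 (8 higher and 3 lower in Par). Cleavage factors went from -0.09 to 0.32 (4 higher and 5 lower in Par).

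The fraction difference itself was tested between gHNRNPC and gCTRL. It differed for 2 genes of 9351 (0.0214%) by edgeR's interaction test, with 998 at an unadjusted p under 0.05. The count depended on the fit: 11 genes were called with library totals, 27 with DESeq2, 48 with a replicate block and 53 with no low-count filter, and leaving out 1 library gave 0 to 3, with 0 without gCTRL nuclear replicate 2. FKBP9, an ER prolyl isomerase, was at 27.7, 25.9 and 25.1 CPM in gCTRL cytoplasm and 127, 135 and 147 CPM in gCTRL nuclei. Its log2 fraction difference was 2.38 ± 0.19 in gCTRL and 0.69 ± 0.17 in gHNRNPC, a change of -1.68 ± 0.26 (edgeR adjusted p = 0.00831). EXOC3-AS1, an antisense gene, went from -0.34 ± 0.19 to 1.32 ± 0.20 (edgeR adjusted p = 0.017), but all of its counts were split between entries.

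Site use within genes was read from the 2 most used ends of each gene. An end was used when its mean over all gCTRL and gHNRNPC libraries was at least 10 counts. Of 1168 genes with 2 such ends, 899 were given an order along the gene and tested. In 335 of them both ends were of 1 kind, transcript ends or listed positions, and were ordered by their own coordinates. In the other 564 a listed position was taken to lie upstream of a transcript end because the table lists it below that transcript or one ending no further downstream. That order could not be checked, since only 9.79% of positions lay within the GRCh38 span of the transcript above them, so for these genes distal means the transcript end and proximal the position. In nuclei 203 genes used the distal end more (22.6%) and 78 the proximal end more (8.68%), by edgeR's quasi-likelihood test of site by fraction. The median use of the distal end was 48.7, 45.3 and 48.8% in the cytoplasmic libraries and 53.1, 54.8 and 57.9% in the nuclear ones. The groups did not overlap (exact two-sided permutation p = 0.1, the smallest possible). The median change of log2(distal/proximal) was 0.36, and in 63.5% of the genes the value lay toward the distal end, called or not. Of the 335 genes ordered by coordinates alone, 80 used the distal end more and 30 the proximal end more, and their median use of the distal end was 46.4, 43.9 and 46.9% in cytoplasm and 52.4, 54.5 and 56.2% in nuclei (exact two-sided permutation p = 0.1). Without cytoplasmic replicate 2 the test called 178 genes in all and without nuclear replicate 3 it called 169, against 281.

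The last 30 bases at the ends of 2 genes whose 2 ends are both annotated transcript ends show how such ends differ. They are from GENCODE 29, 5′ to 3′ on the gene's strand, and capitals mark AATAAA, the signal read by the cleavage machinery; AATAAA and ATTAAA were both searched on that strand.
HNRNPA1 distal: ttttttttttAATAAActgtatttaactta
HNRNPA1 proximal: cgtgacgctgAATAAAtgtcttttttttaa
RPS7 distal: tgactaAATAAAaagtatatattcacagta
RPS7 proximal: gcaacatggtaagaccctgtctacaaaaaa

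Over the 224 genes with such pairs, 67.9% of distal and 22.8% of proximal ends held either motif in these 30 bases, beside 23.0% of all 56493 transcript entries in the same version. Among the 52 of these genes that moved toward the distal end the shares were 69.2% and 23.1%, and among the 22 that moved toward the proximal end 63.6% and 13.6%. A motif match is a description of the annotated end.

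HNRNPA1 (chromosome 12, 54280193 to 54287088), a splicing regulator, used its distal end for 0.916, 2.19 and 1.89% of the reads at its 2 ends in cytoplasm and for 22.8, 31.3 and 43.2% in nuclei. Both ends carry AATAAA. The change of log2(distal/proximal) was 4.83 ± 0.41 (edgeR adjusted p = 3.58e-08). RPL23, a ribosomal protein gene, went from 34.4, 22.7 and 41.7% to 89.4, 92.6 and 92.9% distal, between ends of 2 transcripts annotated as retaining an intron. Neither of these RPL23 ends holds either motif. RPS7 moved the other way, from 99.7, 99.2 and 99.7% to 96.6, 93.9 and 97.9% distal. Its proximal end is that of a retained-intron transcript, holds neither motif and closes with a run of A.

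The next 5 genes each pair a transcript end with a listed position, so their distal end is the transcript end by that assumed order. AHNAK, which encodes a very large scaffold protein, used its distal end for 61.3, 44.7 and 62.0% of reads in cytoplasm and 97.8, 97.8 and 98.9% in nuclei. Its distal reads rose from 90 to 2091 in sum over 3 libraries, while its proximal reads went from 69 to 38. DAZAP2, a small proline-rich protein gene, went the other way, from 98.0, 98.5 and 96.9% to 62.8, 65.7 and 60.5% distal, with a change of -4.70 ± 0.40 (edgeR adjusted p = 3.58e-08). Its distal end is that of a transcript annotated for nonsense-mediated decay. RNF145, an ER membrane ubiquitin ligase, moved from 80.8 ± 3.39% to 92.8 ± 1.12% distal, and PDLIM5, a PDZ and LIM domain protein, from 15.9 ± 4.21% to 4.56 ± 1.26%, with split counts at a site. BIRC5, which encodes survivin, was not called, at 6.94 ± 0.942% and 10.2 ± 3.895% (edgeR adjusted p = 0.289).

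Of the other genes with the largest changes, C19orf47 went from 10.1 ± 1.47% to 82.6 ± 1.87% distal, and LYRM4, RPS10-NUDT3, NGRN and PPP1R37 changed by 4.48, 4.22, 4.10 and 4.10 toward the distal end. Each of these 5 has a site with split counts. Toward the proximal end LIN52, DESI1, SNAP29, GOSR1 and NOSIP changed by -3.79, -3.62, -3.49, -3.28 and -3.16, each again with split counts at a site. The annotated proximal ends of LIN52 and NOSIP, both of retained-intron transcripts, hold neither motif, and that of LIN52 closes with a run of A. The transcript at the distal end is annotated as retained intron for PPP1R37, non-stop decay for NOSIP and processed transcript for LYRM4. Among these 10 only NGRN, LIN52, GOSR1 and NOSIP have ends of 1 kind; in the others the order was assumed. The DESI1 change was -0.47 (edgeR adjusted p = 0.576) when its most proximal and most distal sites were compared. EIF4A2, also of assumed order, has the end of a retained-intron transcript as its distal end. It had 0 proximal beside 1192 distal reads in cytoplasm and 18 beside 753 distal reads in nuclei. These 18 are all its proximal reads in gCTRL, so that end passed the minimum only through the gHNRNPC libraries.

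**Figure D5:**
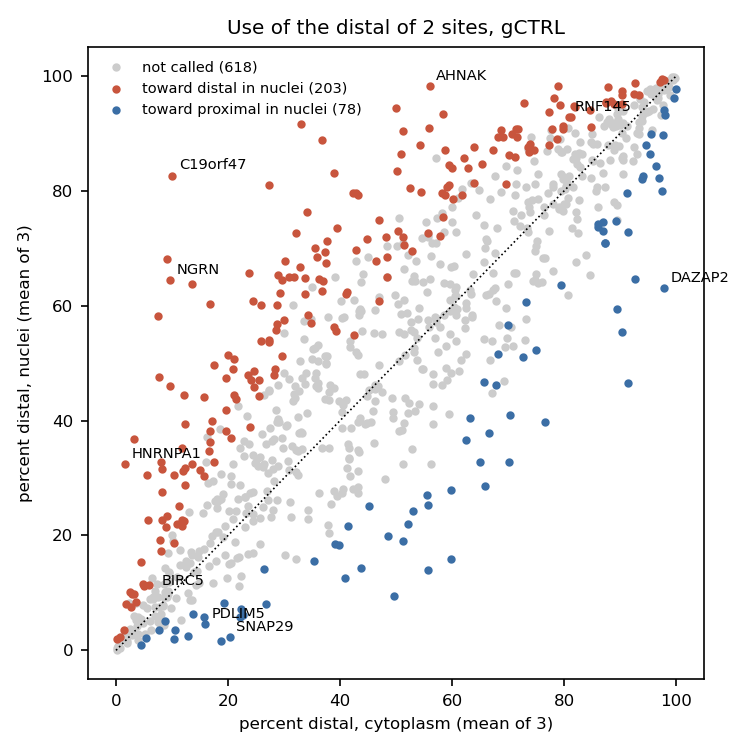
Percent of reads at the distal of 2 ends in nuclei (vertical) against cytoplasm (horizontal), each the mean of 3 gCTRL libraries, for 899 genes; the dotted line marks equal use, and in 564 genes the order of the ends was assumed. The 203 genes called toward the distal end (red) lie above the line and the 78 called toward the proximal end (blue) below it.

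By kind of end, calls numbered 52 toward distal and 22 toward proximal ends where both ends were transcript ends (224 tested), 28 and 8 where both were listed positions (111 tested) and 123 and 48 where a transcript end was paired with a position assumed to be proximal (564 tested). In genes called toward the distal end, distal reads were higher in nuclei by a median of 0.94 on the log2 scale and proximal reads lower by a median of -0.86. In genes called toward the proximal end the medians were -1.12 and 0.74. By protein, 149 of 642 genes with neither hydrophobic feature moved toward the distal end and 58 toward the proximal. Of 45 genes with a signal-like stretch alone 13 and 2 did, of 156 with a transmembrane-like stretch alone 34 and 12, and of 49 with both 5 and 4. These shares were not tested against each other. In Par cells the means moved the same way in 199 of the 203 and 74 of the 78 genes, without a test or a minimum of Par reads. The share of all 899 genes whose Par means moved each way is not given here. In gCTRL 63.5% of all 899 lay toward the distal end. Par reads could be few, down to 16 in a library for RPL23. The fraction difference in site use was called different between gHNRNPC and gCTRL cells in 0 of 899 genes by edgeR, with 60 at an unadjusted p under 0.05, and in 0 by limma. With site means of at least 50 counts edgeR called 2 genes, 1 each way.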

How the data were processed

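The values are expected counts as deposited, 1 row for each transcript end or listed genomic position and 12 libraries per table, with no scaling. Salmon 0.14.1 and the build hg38 are named per the submitters' processing notes; what else was done is not given in the sources used here. The counts were whole, to within 1e-06, in 98.4 to 98.7% of entries per gCTRL library and were rounded. This share is over all entries, and entries at 0 were taken as whole. Of the 899 site pairs tested, 778 had no site with split counts in most gCTRL libraries. Transcript ends were matched to GENCODE 29, and a listed position went to the gene of the transcript above it. Entries left unassigned held 0.971 to 2.04% of gCTRL counts. Positions seldom lay within the GRCh38 span of the transcript above them (9.79%), so none is printed.

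Gene sums were fitted with edgeR 4.0.16 (R 4.3.3; filterByExpr, TMM, quasi-likelihood) over the 12 libraries of the knockdown table; SE is the log2 difference divided by the root of F. The coefficient of variation was 18.8%. DESeq2 1.42.0 and limma 3.58.1 served as alternatives. The code was tested on simulated data. Coding sequences were translated from GENCODE, where the design named RefSeq proteins. A signal-like stretch is an 11-residue window within residues 2 to 35 with mean hydropathy of at least 2.0, a transmembrane-like one a 19-residue window after residue 35 of at least 1.6. Long noncoding types, secretory lists, ribosomal proteins and protein features were added to the make-up of the libraries where the design did not name them.

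Named genes are the 10 largest differences each way (at least 20 CPM, no overlap), up to 4 called per list, all mitochondrially encoded genes, 8 site changes each way, and genes fixed by name. Some items this rule selects are not reported here. Members, lists and tests were chosen with earlier results of these data known. Libraries of the same number were not treated as pairs in the main fit. The correlations of same-numbered gCTRL libraries were -0.19, 0.17 and 0.31. They use deviations from the mean of 3 libraries, which offset each other, so they cannot decide whether replicate numbers pair the libraries.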

Additional observations from a re-analysis of the deposited data

Results flagged for a closer look

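FKBP9 and EXOC3-AS1 had a fraction difference that was itself different between gHNRNPC and gCTRL cells by edgeR's interaction test. FKBP9 changed by -1.68 ± 0.26 on the log2 scale (adjusted p = 0.00831), the nuclear excess being smaller in gHNRNPC. It lost the call without gCTRL nuclear replicate 2 (edgeR adjusted p = 0.0536). EXOC3-AS1 changed by 1.66 ± 0.28 (edgeR adjusted p = 0.017), and it lost the call when any 1 of 7 libraries was left out (gCTRL cytoplasmic replicates 1 and 2, gCTRL nuclear 2 and 3, gHNRNPC cytoplasmic 2 and 3, gHNRNPC nuclear 3), with edgeR adjusted p from 0.0506 to 0.103. Its counts were all split between entries.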

How the results depend on the processing

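Genes called between fractions numbered 2950 with a mean of at least 50 counts (1453 higher, 1497 lower) and 3770 with same-version transcripts only (1983 higher), against 5752; fewer genes were tested in both. Scaling moved the median of all genes from 0.06 to 0.18 with library totals and -0.10 with upper quartiles. The split moved too, to 2898 higher and 3018 lower with upper quartiles. Par calls were 2271 (1072 higher, 1199 lower) at a mean of 50 counts. HNRNPC, not called at 0.06, was -0.0083 with median-of-ratios scaling and with DESeq2, -0.013 without mitochondrially encoded genes, -0.055 with transcript entries, -0.071 with same-version transcripts, -0.10 with upper quartiles and -0.073 to 0.12 leaving out each library. ACTN4 turned to -0.23 with transcript entries.

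Site use was called in 95 genes with site means of at least 50 (70 distal, 25 proximal), 172 with same-version transcripts (123 and 49), and 169 to 271 leaving out each library (116 to 200 and 53 to 71). With whole counts only, an alternative chosen after seeing the data, it was 212, and with pairs ordered by their own coordinates only, also chosen afterwards, 109 of 335 (79 and 30). At site means of at least 50 the site interaction called 2 genes, 1 each way. The expression interaction called 11 genes with library totals (10 lower), 53 with no filter (19 higher, 34 lower), 27 with DESeq2 (14 and 13) and 0 to 3 leaving out each library (0 to 1 higher, 0 to 2 lower).

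With a replicate block, it called 48 (21 higher, 27 lower), genes between fractions 5866 and site use 309; not every library correlated best with its own number.

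With mitochondrially encoded genes left out of the totals, nuclei minus cytoplasm in percentage points was 2.78 for long noncoding genes, 0.56 for position entries (from -0.40), -0.20 for retained-intron entries (from -1.20), -1.08 for nonsense-mediated-decay entries (from -1.48; -1.62 to -1.19 leaving out each library), 7.53 for the secretory lists, -11.3 for ribosomal proteins and 20.1 for genes with a hydrophobic feature. Stricter hydropathy thresholds gave medians of 2.43 for signal-like only, 1.34 for transmembrane-like only and -0.25 for neither.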
